A study of Homo sapiens with 6 samples.

Results

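The genes described here are 10 receptors of the tumour necrosis factor (TNF) family that epithelial cells can carry, chosen by name from the 16781 genes of the expression table: TNFRSF1A, TNFRSF1B, FAS, TNFRSF10A, TNFRSF10B, TNFRSF10D, TNFRSF12A, TNFRSF21, TNFRSF11A and LTBR. All 10 names were found in the table, and 9 had enough reads for a test. Transcripts were measured by RNA sequencing in 6 libraries of Caco-2 cells, an established human colon adenocarcinoma line that takes on features of absorptive enterocytes. Of these, 3 libraries came from CBS KO cells, in which CRISPR/Cas9 was used to knock out CBS stably, the enzyme of transsulfuration that also makes hydrogen sulfide, and 3 came from WT cells with no modification. Both groups were grown in the same high-glucose medium with serum. The CBS KO cells alone had also been infected with a lentivirus, packaged in 293T cells, that held Cas9, the guide RNA and resistance to puromycin, and then selected with that drug. Cells with the vector but no guide were not analysed here, so the infection, the selection and the knockout of CBS cannot be told apart. The labels name no single clone. Nor do they say whether the 3 libraries were grown as separate cultures, and the p-values therefore rest on a spread between libraries that may be technical. In bulk RNA, fewer cells with a transcript and less of it per cell cannot be told apart.

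Receptors of this family are membrane proteins with cysteine-rich repeats outside the cell that bind trimeric ligands of the TNF superfamily. TNFRSF1A, FAS, TNFRSF10A, TNFRSF10B and TNFRSF21 have a cytoplasmic death domain. Of these, TNFRSF1A, FAS, TNFRSF10A and TNFRSF10B can recruit adaptors such as FADD and TRADD and, through caspase-8, start apoptosis. Others (TNFRSF1B, TNFRSF11A, TNFRSF12A and LTBR) have no death domain and bind TRAF adaptors, which lead to NF-kB and to survival, repair and inflammatory programmes. In the gut epithelium TNF is a driver of barrier loss in colitis, and the same pathways decide between survival and death of enterocytes.

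The estimated counts summed to between 12805180 and 14307287 in the CBS KO libraries and between 16097680 and 16176745 in the WT libraries. Levels are given as counts per 1000000 counts after TMM scaling (the trimmed mean of M values), called CPM, for one gene across libraries, and as transcripts per 1000000 (TPM), which divide by length, for comparisons between genes. CBS itself stood at 22.8 ± 3.81 CPM in CBS KO and 50.8 ± 2.11 CPM in WT (SD, n = 3 each). That is 2.22-fold lower (adjusted p = 1.18e-08 by edgeR), so part of the transcript remained. Transcript levels do not show whether the protein was lost. Of 10 colon epithelial markers 9 were tested, 5 higher and 3 lower, and CDX1 was under 1 CPM. Their summed level, most of it keratins and EPCAM, was 8475 to 9295 CPM in CBS KO and 7360 to 7861 CPM in WT. Against that sum, the intestinal transcription factors CDX2 and HNF4A fell 3.83-fold and 2.37-fold and the microvillus protein VIL1 1.25-fold, while the differentiation keratin KRT20 rose 5.54-fold. PTPRC, CD3E and CD3D of the leukocyte markers, COL1A2 of the fibroblast markers and CDH5 and TEK of the endothelial markers were under 1 CPM in both groups. The summed level of 6 leukocyte markers, most of it from CD68, was 91.4 to 107.8 CPM in CBS KO and 40.3 to 48.4 CPM in WT, and CD14 fell. That of 6 fibroblast markers, most of it from COL1A1, which was not called, was 191 to 203 CPM in CBS KO and 228 to 258 CPM in WT. Within it PDGFRA, PDGFRB and COL3A1 fell 3.48-fold, 4.04-fold and 3.51-fold, and LUM rose 2.44-fold. That of 5 endothelial markers was 54.9 to 63.9 CPM in CBS KO and 57.3 to 61.03 CPM in WT, with EGFL7 1.54-fold higher and PECAM1 3.40-fold and VWF 1.45-fold lower. The part of these markers in the results was not tested.

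Of the 9 receptors tested, 6 rose and 3 fell in CBS KO cells (edgeR's quasi-likelihood test, Benjamini-Hochberg adjusted p under 0.05 over all genes). The median of their log2 fold changes was 0.81, against -0.01 over all 13028 genes tested. With the same rule 77.2% of all genes were called, 38.4% as higher and 38.9% as lower, so that a call as such sets no receptor apart. The values of the 2 groups did not overlap for any of the 9 receptors, and they did not overlap for 79.1% of all genes tested. The size of the change divided the receptors more than the call did: TNFRSF12A, TNFRSF21, TNFRSF11A and TNFRSF10D rose more than 2-fold, TNFRSF1B and TNFRSF10B rose less, and TNFRSF10A, LTBR and TNFRSF1A fell by less than 1.5-fold, all with TMM. The falls were larger with the other scalings: on the log2(TPM + 1) scale the log2 fold change was -1.02 for LTBR, -0.95 for TNFRSF10A and -0.80 for TNFRSF1A, and by library total -0.83, -0.87 and -0.58 in the same order. The direction of small changes depends on how libraries are scaled, since the all-gene median of the log2 fold change moved with it. That median was -0.01 after TMM, -0.36 after division by the library total, -0.31 for log2(FPKM + 1) and -0.52 for log2(TPM + 1). The 10 most abundant genes held 7.78 to 8.85% of the counts in CBS KO and 5.22 to 5.51% in WT, and their part in these shifts was not tested. Under these 4 scalings TNFRSF12A, TNFRSF21, TNFRSF11A and TNFRSF10D were called higher and TNFRSF10A, LTBR and TNFRSF1A were called lower each time, while TNFRSF10B and TNFRSF1B were not called with TPM. The calls over all genes in these fits were 79.6% by library total (22.8% higher, 56.8% lower), 79.5% by FPKM (22.7% higher, 56.7% lower) and 81.5% by TPM (15.4% higher, 66.1% lower).

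The promoters of the receptor with the second largest rise, TNFRSF21, of TNFRSF1B and of TNFRSF1A, which fell, are shown because TNF receptors and their partners are known targets of NF-kB and interferon signalling. Each line gives the 250 bases upstream of the start in RefSeq's GRCh38.p14 annotation, written 5′ to 3′ along the gene, with motif matches in capitals. The bases after the annotated start were found in a GENCODE transcript of TNFRSF21 and of TNFRSF1A but in none of TNFRSF1B, so the start used for TNFRSF1B, and its match positions, rest on RefSeq alone. The windows are chr6:47309906-47310155 on the minus strand, chr1:12166741-12166990 on the plus strand and chr12:6342077-6342326 on the minus strand.

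TNFRSF21: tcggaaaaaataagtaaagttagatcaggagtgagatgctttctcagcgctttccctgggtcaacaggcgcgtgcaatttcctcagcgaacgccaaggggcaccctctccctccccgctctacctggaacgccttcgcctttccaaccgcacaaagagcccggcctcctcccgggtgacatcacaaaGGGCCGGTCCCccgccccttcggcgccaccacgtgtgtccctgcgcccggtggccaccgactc
TNFRSF1B: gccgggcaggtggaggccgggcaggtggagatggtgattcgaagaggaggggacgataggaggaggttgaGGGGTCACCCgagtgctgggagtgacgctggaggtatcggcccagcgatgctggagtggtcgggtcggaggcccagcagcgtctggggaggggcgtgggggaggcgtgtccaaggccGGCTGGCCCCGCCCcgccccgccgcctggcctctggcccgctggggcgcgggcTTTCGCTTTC
TNFRSF1A: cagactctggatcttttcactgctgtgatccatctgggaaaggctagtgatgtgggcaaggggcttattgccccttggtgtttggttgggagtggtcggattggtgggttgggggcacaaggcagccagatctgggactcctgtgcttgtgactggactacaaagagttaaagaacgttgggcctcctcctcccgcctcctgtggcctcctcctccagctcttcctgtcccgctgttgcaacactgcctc

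Matches were sought on both strands for an NF-kB core (GGG and CC with any 5 bases between them), an AP-1 site (TGANTCA), an interferon response core (TTTC and TTTC with any 2 bases between them) and an ATF-C/EBP composite (TGATGNAA). The NF-kB core occurred in 54.4% of the 35116 promoter windows of the table, AP-1 in 6.57%, the interferon core in 3.02% and the ATF-C/EBP composite in 3.14%, so an NF-kB core match is common. TNFRSF21 held 2 overlapping NF-kB core matches, at bases 63 to 54 and 62 to 53 before its start. TNFRSF1B held 3, at bases 180 to 171 and, overlapping each other, 63 to 54 and 59 to 50, and an interferon core match in the last 10 bases before its start. In the window of TNFRSF1A none of the 4 motifs was found. Promoter windows were matched for 6 of the 10 receptors. Of the others among them, TNFRSF11A held 5 NF-kB core matches, and the single window of LTBR, which fell, held 2. Of 3 windows of FAS 2 held NF-kB core matches and 1 of these also an AP-1 match. NF-kB core matches thus occurred in receptors that rose and in one that fell, and their relation to direction was not tested. A match is a description of letters and not of binding.

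TNFRSF12A, the receptor Fn14 for the cytokine TWEAK and a gene known to be induced by growth factors and injury, had the largest rise among the receptors. Its level was 51.1, 52.6 and 58.1 CPM in the CBS KO libraries, against 13.6, 17.1 and 12.9 CPM in the WT libraries. All CBS KO libraries lay far above all WT libraries, and replicate 2 was the highest of WT. The rise was 3.71-fold (log2 fold change 1.89 with an SE of 0.10, adjusted p = 2.50e-11). It lay above 96.1% of all genes tested with TMM and above 97.5% with TPM, where its log2 fold change was 1.29. The gene spans 3020368 to 3022383 of chromosome 16 in GRCh38. CLDN6, whose annotated span overlaps it on the opposite strand, stood at 0.08 CPM in CBS KO and 0.07 CPM in WT.

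TNFRSF21, the death receptor DR6, was next. It reached 190.03, 167 and 158 CPM in CBS KO, against 59.7, 57.9 and 52.0 CPM in WT. The CBS KO libraries differed among themselves by more than the WT libraries did, but the lowest of them was far above all WT libraries. TNFRSF21 rose 3.04-fold (log2 fold change 1.602, SE 0.08, adjusted p = 1.16e-11). It lies at 47231532 to 47309905 of chromosome 6.

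TNFRSF11A, the receptor RANK for the ligand RANKL, was a rare transcript in both groups, with 6.72, 5.45 and 5.61 CPM in CBS KO against 1.92, 2.52 and 1.97 CPM in WT. These levels rest on 213 counts over the CBS KO libraries and 117 counts over the WT libraries. The groups were apart, and the gene rose 2.77-fold (log2 fold change 1.47, SE 0.17, adjusted p = 8.01e-07). On the log2(TPM + 1) scale, which shrinks changes of genes at this level, the log2 fold change was 0.43 (adjusted p = 0.00373 by limma). The all-gene median also differed between the scalings, at -0.01 with TMM and -0.52 with TPM. With TPM the value stood 0.95 above that median.

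Of the receptors for TNF itself, TNFRSF1A, the widely expressed death-domain receptor TNFR1, fell slightly, and TNFRSF1B, the TRAF-binding receptor TNFR2, rose with TMM. TNFRSF1A had 54.2, 51.1 and 56.5 CPM in CBS KO, against 60.1, 64.8 and 64.3 CPM in WT. The groups were apart by a small gap, and the log2 fold change of -0.23 (SE 0.07, adjusted p = 0.00662) is a fall of 1.17-fold. It lay above 39.1% of all genes tested, so the fall was close to the middle of the distribution. TNFRSF1B had 20.5, 19.2 and 19.8 CPM in CBS KO, against 12.03, 11.3 and 10.7 CPM in WT. Each CBS KO library was above each WT library, a 1.75-fold rise (log2 fold change 0.81, SE 0.09, adjusted p = 4.56e-07). With TPM the log2 fold change of TNFRSF1B was 0.21 and was not called (adjusted p = 0.0719 by limma), although it stood 0.73 above the median of all genes.

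Transcripts of the receptors for TRAIL, a ligand that kills many tumour cells, moved apart from each other. These genes form a cluster on chromosome 8, where TNFRSF10B lies at 23020133 to 23069031, TNFRSF10D at 23135588 to 23164027 and TNFRSF10A at 23190452 to 23225102 of GRCh38. Since they are close paralogs, the reads of one may have been given in part to another. TNFRSF10D, a decoy receptor with a truncated death domain, had 117, 114 and 114 CPM in CBS KO, against 53.6, 49.04 and 58.3 CPM in WT. Its CBS KO libraries were nearly equal and all lay about 2-fold above WT (log2 fold change 1.10, SE 0.07, adjusted p = 3.60e-10). TNFRSF10B, the death receptor DR5 and a known target of p53 and of the stress factor CHOP, had 209.5, 198 and 185 CPM in CBS KO, against 134, 129 and 127 CPM in WT. The groups were apart and the gene rose 1.52-fold with TMM (log2 fold change 0.61, SE 0.06, adjusted p = 8.75e-08). With TPM it stood at 74.8, 66.8 and 58.1 TPM in CBS KO, against 67.4, 65.3 and 64.2 TPM in WT, where the groups overlapped and the log2 fold change was 0.01 (adjusted p = 0.896 by limma). That value was still 0.53 above the median of all genes. It lay above 77.6% of them, against 77.7% with TMM. RHOBTB2, whose span overlaps TNFRSF10B on the opposite strand, was lower, at 25.4 ± 1.22 CPM in CBS KO and 69.6 ± 1.71 CPM in WT (SD, n = 3 each). TNFRSF10A, the death receptor DR4, had 7.38, 9.40 and 7.40 CPM in CBS KO, against 11.3, 11.4 and 11.9 CPM in WT. All CBS KO libraries were below all WT libraries, and replicate 2 of CBS KO was the nearest to them (log2 fold change -0.52, SE 0.12, adjusted p = 0.000654).

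LTBR, the lymphotoxin beta receptor that drives the noncanonical NF-kB pathway, fell. It had 57.8, 60.1 and 65.1 CPM in CBS KO, against 84.98, 84.1 and 85.4 CPM in WT. The WT libraries were almost equal and the groups were far apart, with a fall of 1.39-fold (log2 fold change -0.48, SE 0.07, adjusted p = 4.77e-06). SCNN1A, whose span overlaps LTBR on chromosome 12 on the opposite strand, moved the other way, with 120.4 ± 1.87 CPM in CBS KO and 93.9 ± 1.36 CPM in WT. Whether the authors' counting used strand is not given in the sources used here, so reads of overlapping genes may not be fully separated.

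FAS, the receptor of FAS ligand and the best known death receptor, was close to absent from the reads of both groups. It had 0, 3 and 2 counts in the CBS KO libraries, against 1, 0 and 0 counts in the WT libraries, and was not tested. For the libraries with no count, a limit of 3 counts (counting error only) is 0.246 CPM in replicate 1 of CBS KO, 0.165 CPM in replicate 2 of WT and 0.164 CPM in replicate 3 of WT. No library had more than 3 counts, so no fold is given. ACTA2, whose span overlaps FAS on the opposite strand, had no count in CBS KO and 0.02 CPM in WT.

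**Figure D1:**
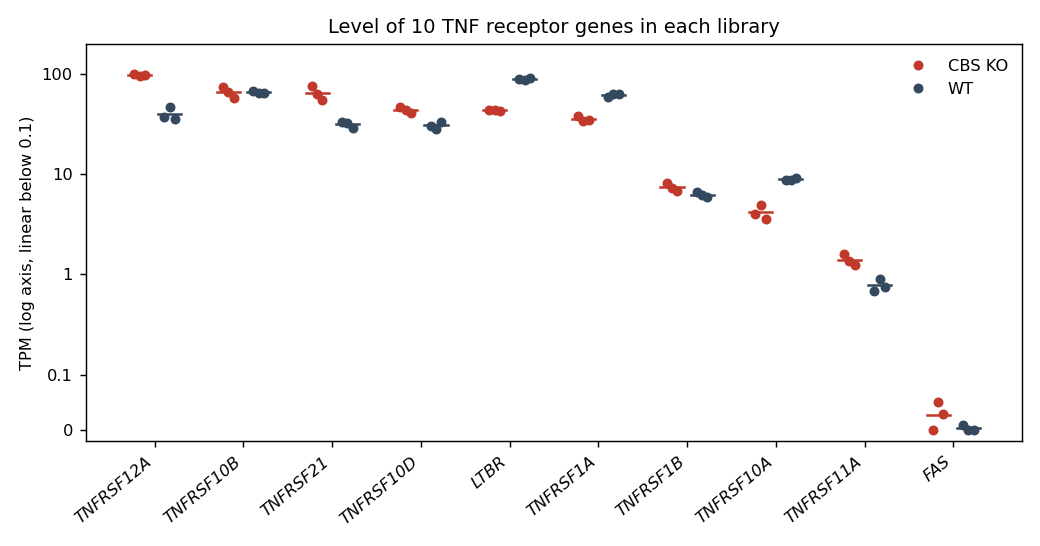
Level of each receptor in each library, in TPM on a log axis that is linear below 0.1. Each point is 1 library and each short line is the mean of 3 libraries, with CBS KO at the left of each pair and WT at the right. TNFRSF12A, at 98.2 TPM, leads in CBS KO, LTBR, at 89.6 TPM, leads in WT, and FAS stays under 0.1 TPM in all 6 libraries.

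Per length, the order of the receptors differed between the groups. In CBS KO the order ran TNFRSF12A (98.2 ± 2.15 TPM), TNFRSF10B (66.5 ± 8.37), TNFRSF21 (64.6 ± 10.4), TNFRSF10D (43.9 ± 3.33), LTBR (43.7 ± 0.50), TNFRSF1A (35.5 ± 2.25), TNFRSF1B (7.39 ± 0.64), TNFRSF10A (4.16 ± 0.67), TNFRSF11A (1.41 ± 0.18) and FAS (SD, n = 3 each). There the ranges of TNFRSF10B and TNFRSF21, and those of TNFRSF10D and LTBR, overlapped, so these neighbours were not separated. In WT the order ran LTBR (89.6 ± 1.96 TPM), TNFRSF10B (65.6 ± 1.64), TNFRSF1A (62.3 ± 2.61), TNFRSF12A (39.8 ± 6.06), TNFRSF21 (31.75 ± 2.23), TNFRSF10D (30.7 ± 2.70), TNFRSF10A (8.93 ± 0.23), TNFRSF1B (6.24 ± 0.38), TNFRSF11A (0.78 ± 0.12) and FAS. Of the WT neighbours only TNFRSF21 and TNFRSF10D overlapped. The 10 receptors together made up 394, 361 and 341 TPM in CBS KO, against 333, 340.2 and 333 TPM in WT, so the sums of the groups were apart by a narrow gap. TNFRSF12A took 27.0 ± 1.54% of that sum in CBS KO and 11.8 ± 1.66% in WT, TNFRSF21 17.6 ± 1.51% and 9.46 ± 0.64%, LTBR 12.0 ± 0.75% and 26.7 ± 0.86%, and TNFRSF1A 9.72 ± 0.41% and 18.55 ± 0.69% in the same order. TNFRSF10B took 18.2 ± 1.01% in CBS KO and 19.6 ± 0.57% in WT.

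**Figure D2:**
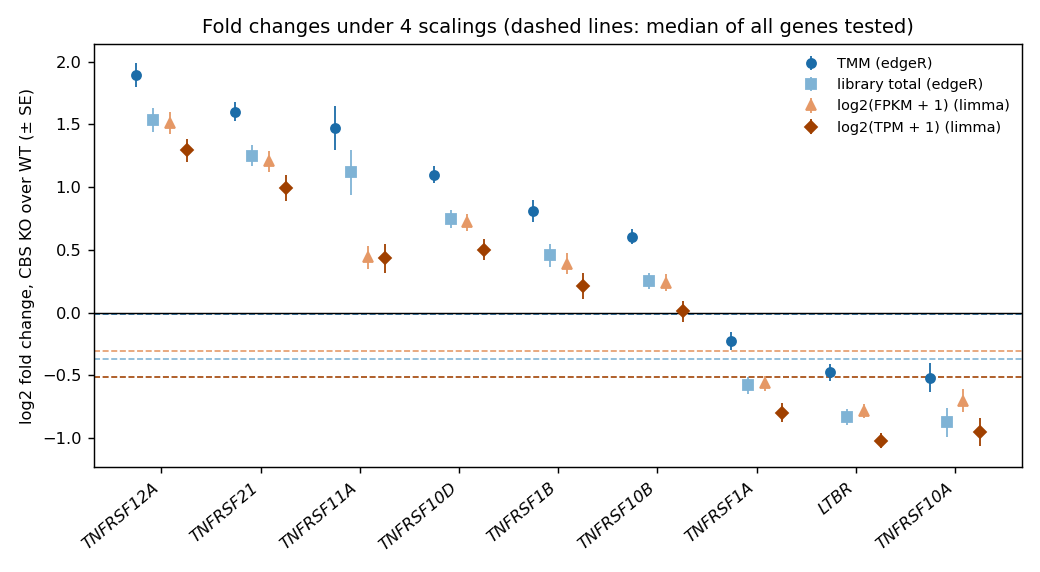
Log2 fold change of each tested receptor, CBS KO over WT, under 4 scalings, with standard errors as bars; dashed lines show the median of all genes tested under the scaling of the same colour. TNFRSF12A, TNFRSF21, TNFRSF11A and TNFRSF10D lie above 0 and TNFRSF1A, LTBR and TNFRSF10A below 0 under all 4, while TNFRSF10B comes to 0.01 with TPM.

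A ratio of 2 genes in 1 library is free of the scaling of that library. With 3 libraries against 3, the exact two-sided permutation test cannot go below p = 0.1, and 7 of the 8 ratios compared reached that value, with groups that did not overlap. Single genes did not overlap for 79.1% of all genes tested, and the same share over ratios was not computed. The genes of the ratios come from lists chosen with earlier results of these data known. The p-value of 0.1 therefore sets no ratio apart. The ratio of TNFRSF1B to TNFRSF1A, the TRAF-binding to the death-domain receptor of TNF, was 0.213, 0.214 and 0.198 in CBS KO, against 0.112, 0.0971 and 0.0923 in WT, which is 2.08-fold higher (exact permutation p = 0.1). That of TNFRSF10B to TNFRSF10A was 18.5, 13.7 and 16.3 in CBS KO, against 7.69, 7.40 and 6.98 in WT (2.18-fold higher, exact permutation p = 0.1). The decoy TNFRSF10D set against the sum of the death receptors TNFRSF10A and TNFRSF10B gave 0.601, 0.609 and 0.661 in CBS KO, against 0.402, 0.378 and 0.456 in WT (1.52-fold higher, exact permutation p = 0.1). TNFRSF12A was 2.65, 2.86 and 2.81 times TNFRSF1A in CBS KO, against 0.629, 0.730 and 0.556 times in WT (4.37-fold, exact permutation p = 0.1). LTBR to TNFRSF1A moved least of these, with 1.16, 1.30 and 1.25 in CBS KO, against 1.51, 1.37 and 1.44 in WT (exact permutation p = 0.1). Of the 5 ratios among receptors, that of TNFRSF12A to TNFRSF1A differed most.

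The pathway around the receptors was followed in lists of its ligands, its other receptors, its adaptors, kinases and proteases. Among the ligands 7 of the 8 tested rose and 1 fell, beside 38.4% of all genes higher and 38.9% lower. Their median log2 fold change was 1.48. TNF and LTB had enough reads for a test only through CBS KO, so they could enter only as rises. With the filter at a mean of 5 CPM, 3 ligands were called higher and 0 lower, beside 4343 of all genes higher and 4387 lower. TNFSF4, the ligand that fell, stood at 1.48 CPM in CBS KO and 4.28 CPM in WT. It was too low for this filter and could not enter, and the filter left out ligands that rose as well. On the log2(TPM + 1) scale 6 were called higher and 1 lower of 9, beside 15.4% and 66.1% of all genes. In all, 15 of the 18 ligands written down were in the table used here, and 7 of these had too few counts to test. TNFSF9, the ligand 4-1BBL and the most abundant of the list per length, had 102, 98.0 and 104 CPM in CBS KO, against 5.88, 5.32 and 5.68 CPM in WT. That is an 18.0-fold rise (log2 fold change 4.17, SE 0.08, adjusted p = 2.56e-16), with no overlap. Its receptor TNFRSF9 (4-1BB) was rare, at 2.87, 4.13 and 2.36 CPM in CBS KO, against 0.16, 0.16 and 0.33 CPM in WT, and the WT level rests on 12 counts (log2 fold change 3.77, SE 0.36, adjusted p = 5.69e-08).

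TNF, the cytokine that names the family, had 75 counts in CBS KO, against 2 counts in WT, a ratio of 57.2 with a 95% counting interval of 15.3 to 481. Even in CBS KO it stood at only 1.80, 2.55 and 1.95 CPM. CD70, the ligand of CD27, had 6.72, 6.15 and 8.46 CPM in CBS KO, against 0.82, 0.99 and 1.09 CPM in WT (7.31-fold, adjusted p = 1.32e-09). LTB, the membrane partner of lymphotoxin and a ligand of LTBR, rose 2.89-fold, with 46 counts over the CBS KO libraries and 24 over the WT libraries (adjusted p = 0.000496). TNFSF10, which encodes TRAIL and was chosen after its values were seen, had 15.1, 13.3 and 17.9 CPM in CBS KO, against 5.82, 6.64 and 4.75 CPM in WT (2.69-fold, adjusted p = 7.00e-08). TNFSF4, the ligand of OX40, was the one ligand that fell, to 1.48 ± 0.16 CPM in CBS KO, against 4.28 ± 0.44 CPM in WT (SD, n = 3 each), and was also chosen after its values were seen.

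The other receptors of the family were divided: 4 of the 10 tested rose, 5 fell and 1 missed the threshold (median log2 fold change -0.37). Of all genes 38.4% were higher and 38.9% lower. TNFRSF9 had enough reads for a test only through CBS KO, and EDAR only through WT. On the log2(TPM + 1) scale 4 were called higher and 5 lower of 9 tested, beside 15.4% and 66.1% of all genes. In this list 16 of 19 genes were in the table used here and 6 had too few counts. RELT, a receptor without a known death domain, had 52.4, 43.1 and 47.97 CPM in CBS KO, against 16.2, 16.8 and 16.6 CPM in WT, a 2.90-fold rise (adjusted p = 5.74e-11). NGFR, the neurotrophin receptor p75, rose 5.67-fold to 4.68 ± 1.10 CPM in CBS KO, against 0.82 ± 0.11 CPM in WT. TNFRSF14, the receptor HVEM of LIGHT and the most abundant of this list per length, reached 40.8 ± 1.56 CPM in CBS KO, against 21.1 ± 1.94 CPM in WT (adjusted p = 1.61e-08). EDAR, the ectodysplasin receptor, fell to 0.36 ± 0.19 CPM in CBS KO, against 1.21 ± 0.36 CPM in WT (adjusted p = 0.00127). TNFRSF11B, the secreted decoy osteoprotegerin that binds RANKL and TRAIL, was chosen after its values were seen and had 4.10, 2.64 and 3.09 CPM in CBS KO, against 9.50, 9.65 and 8.47 CPM in WT (2.80-fold lower, adjusted p = 1.78e-07).

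**Figure D3:**
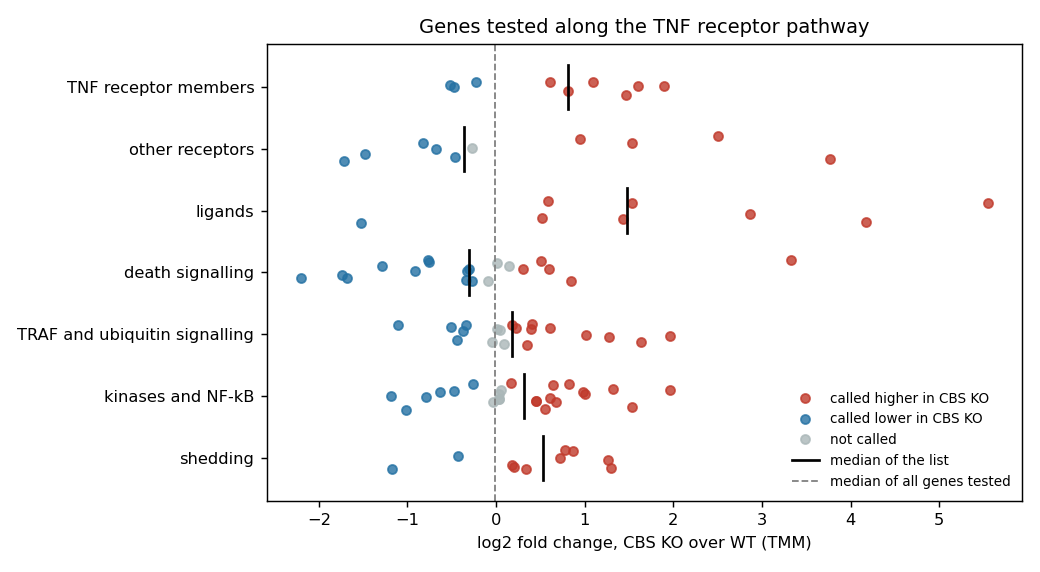
Log2 fold change, CBS KO over WT with TMM, of every tested gene in the lists of the TNF receptor pathway; points are genes, coloured by the call, black bars are list medians and the dashed line is the median of all genes tested. Ligands have the highest median (1.48), and the other receptors and the death signalling genes have medians below 0 (-0.37 and -0.30). Among the ligands, TNF and LTB had enough reads for a test only through CBS KO.

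Of 19 genes of proximal death signalling tested, 5 rose (BIRC3, CFLAR, BIRC2, FAF1 and XIAP), 11 fell and 3 missed the threshold (median log2 fold change -0.30), beside 38.4% of all genes higher and 38.9% lower. FADD, the adaptor between death receptors and caspase-8, had 10.9, 9.76 and 12.2 CPM in CBS KO, against 50.7, 48.0 and 52.4 CPM in WT. CASP8, the initiator caspase itself, had 11.8, 10.6 and 10.2 CPM in CBS KO, against 36.4, 36.7 and 36.1 CPM in WT. RIPK1, the kinase that TNFRSF1A recruits for survival or death, had 11.6, 10.99 and 9.11 CPM in CBS KO, against 34.1, 32.3 and 35.1 CPM in WT. In each of these 3 genes the groups were far apart and the replicates close to each other. The falls were 4.59-fold for FADD (log2 fold change -2.20, SE 0.09, adjusted p = 1.57e-12), 3.35-fold for CASP8 (adjusted p = 1.57e-11) and 3.20-fold for RIPK1 (adjusted p = 9.82e-11). TRADD, the adaptor that links TNFRSF1A to RIPK1, and MLKL, the executor of necroptosis, were chosen after their values were seen. TRADD fell 1.69-fold to 8.04 ± 0.93 CPM in CBS KO, against 13.6 ± 0.40 CPM in WT, and MLKL 1.88-fold to 3.29 ± 0.11 CPM in CBS KO, against 6.19 ± 0.75 CPM in WT. RIPK3, the kinase upstream of MLKL, had 1 count in CBS KO and 1 count in WT and was not tested.

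BIRC3, CFLAR and BIRC2, which restrain caspase-8 or its activation, rose with TMM. BIRC3, the ubiquitin ligase cIAP2 and a known NF-kB target, had 70.1, 65.04 and 60.6 CPM in CBS KO, against 5.99, 7.35 and 6.17 CPM in WT, a 10.02-fold rise (log2 fold change 3.32, SE 0.09, adjusted p = 2.06e-14). CFLAR, which encodes the caspase-8 inhibitor c-FLIP, had 156, 172 and 138 CPM in CBS KO, against 87.9, 87.1 and 84.999 CPM in WT (1.79-fold, adjusted p = 1.91e-08). BIRC2, the ligase cIAP1, rose 1.51-fold with TMM and was not called with TPM (log2 fold change 0.05, adjusted p = 0.572 by limma). Within a library, CFLAR stood at 6.12 ± 0.384 times the TPM of CASP8 in CBS KO and 0.973 ± 0.0293 times in WT (SD, n = 3 each), with the groups apart (exact permutation p = 0.1). BIRC3 stood at 0.266, 0.236 and 0.274 times BIRC2 in CBS KO, against 0.0372, 0.0419 and 0.0462 times in WT (exact permutation p = 0.1). Both ratios were more than 6-fold higher in CBS KO. DIABLO, a mitochondrial antagonist of BIRC2 and BIRC3, was the gene with the highest TPM of the list averaged over both groups. It stood at 44.6 ± 3.71 CPM in CBS KO and 47.5 ± 1.36 CPM in WT and did not pass (adjusted p = 0.269 by edgeR). With the other 3 scalings DIABLO was called lower. On the log2(TPM + 1) scale 2 of the 19 genes were called higher and 13 lower, beside 15.4% of all genes higher and 66.1% lower.

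**Figure D4:**
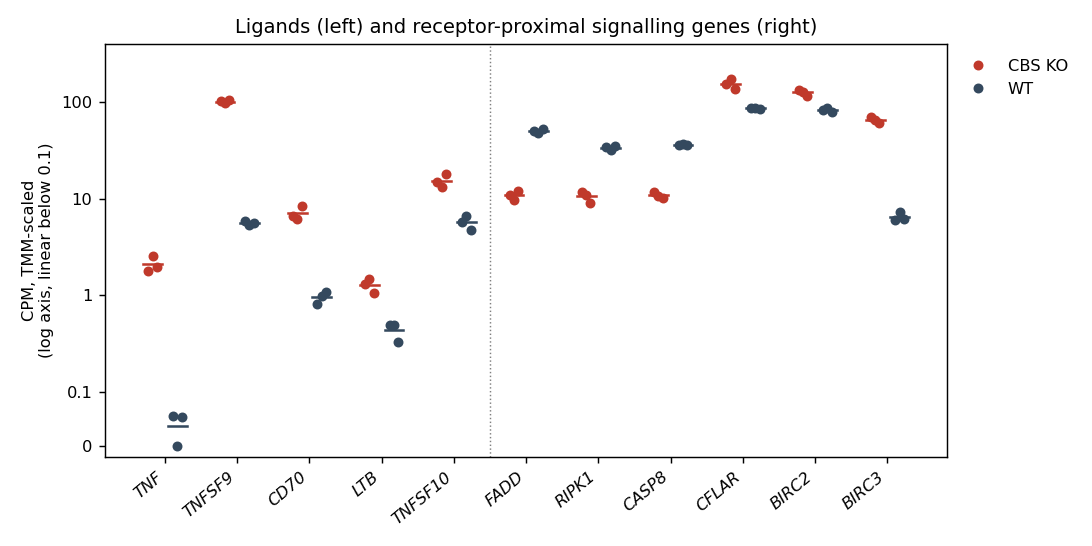
CPM of 5 ligands (left of the dotted line) and 6 proximal signalling genes (right) on a log axis that is linear below 0.1; points are libraries, lines are means of 3, CBS KO left and WT right in each pair. The ligands shown, CFLAR, BIRC2 and BIRC3 are higher in CBS KO with TMM, and FADD, RIPK1 and CASP8 are lower. Not shown are TNFSF4, which fell, and TNFSF15 and EDA, which rose 1.43-fold and 1.51-fold. TNF and LTB had enough reads for a test only through CBS KO, and BIRC2 was not called with TPM.

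TRAF adaptors and the ubiquitin machinery that builds the signalling complex were mixed, with 10 of 19 higher, 5 lower and 4 not called (median log2 fold change 0.18). Of all genes 38.4% were higher and 38.9% lower. On the log2(TPM + 1) scale this became 4 higher and 11 lower of 18, beside 15.4% and 66.1% of all genes, so the shift was general. RBCK1, the HOIL-1 subunit of the linear ubiquitin ligase, had 380.0, 398 and 414 CPM in CBS KO, against 103, 102 and 101 CPM in WT (3.90-fold higher, adjusted p = 2.78e-14). RNF31, the catalytic subunit HOIP of the same ligase, had 24.4, 24.8 and 25.3 CPM in CBS KO, against 52.1, 55.4 and 53.5 CPM in WT (2.16-fold lower, adjusted p = 3.37e-10). These subunits of 1 complex differed in direction, each with groups apart. TRAF6, an adaptor of TNFRSF11A and of Toll-like receptors, rose 3.10-fold to 59.7 ± 5.64 CPM in CBS KO, against 19.2 ± 0.11 CPM in WT. TNFAIP3, the ubiquitin editor A20 that limits NF-kB, rose 2.41-fold to 88.1 ± 12.0 CPM in CBS KO, against 36.5 ± 2.06 CPM in WT. The ratio of TRAF1 to TRAF2 was 0.0149, 0.0186 and 0.0188 in CBS KO, against 0.0150, 0.0144 and 0.0118 in WT, where the groups overlapped (exact permutation p = 0.2).

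Of the 24 kinases and NF-kB proteins 13 rose, 6 fell and 5 did not pass (median log2 fold change 0.31), beside 77.2% of all genes called, 38.4% as higher. With TPM 5 were called higher and 12 lower, beside 15.4% of all genes higher and 66.1% lower. RELB, a subunit of the noncanonical pathway below LTBR and TNFRSF12A, had 21.1, 19.5 and 22.4 CPM in CBS KO, against 5.27, 5.65 and 5.19 CPM in WT (3.91-fold, adjusted p = 4.03e-11). Its partner NFKB2 rose 2.50-fold to 74.3 ± 3.11 CPM in CBS KO, against 29.8 ± 0.98 CPM in WT. NFKBIA, the inhibitor that NF-kB induces to shut itself off, rose 2.89-fold to 85.9 ± 8.07 CPM in CBS KO, against 29.8 ± 0.85 CPM in WT. TAB1, a regulator of the kinase TAK1, fell 2.27-fold to 20.7 ± 1.10 CPM in CBS KO, against 47.1 ± 0.78 CPM in WT. MAPK14, the kinase p38 alpha and the gene with the highest TPM of the list averaged over both groups, stood at 139.8 ± 2.27 CPM in CBS KO and 136 ± 4.78 CPM in WT and did not pass with TMM (adjusted p = 0.542), but was called lower with the library total, FPKM and TPM.

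Genes that act on the release of TNF receptors from the cell surface were the last list, with 8 of 10 higher and 2 lower (median log2 fold change 0.53). Beside them 38.4% of all genes were higher and 38.9% lower. With TPM 4 were higher and 5 lower, beside 15.4% and 66.1% of all genes. ARF6, a small GTPase of membrane traffic, had 308, 298 and 307 CPM in CBS KO, against 124, 124 and 123 CPM in WT (2.46-fold, adjusted p = 1.67e-12). TIMP3, an inhibitor of the sheddase ADAM17, rose 2.41-fold to 241 ± 7.40 CPM in CBS KO, against 100.2 ± 7.08 CPM in WT. TIMP1, a related metalloprotease inhibitor and the most abundant of the list per length, rose 1.64-fold with TMM and was not called with TPM (adjusted p = 0.0577 by limma). NUCB2, a calcium-binding protein reported to aid release of TNFRSF1A, rose 1.83-fold, and FRMD8, which holds the ADAM17 partner iRhom at the surface, fell 2.25-fold to 10.96 ± 0.55 CPM in CBS KO, against 24.7 ± 2.35 CPM in WT. ADAM17 and ADAM10 were named after their values were seen: ADAM17 stood at 87.3 ± 11.2 CPM in CBS KO and 76.9 ± 2.05 CPM in WT with overlapping groups (adjusted p = 0.0497), and its direction, like that of ADAM10, turned with other scalings.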

How the data were processed

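Messenger RNA of 6 Caco-2 libraries (3 CBS KO, 3 WT, grouped by sample title) was analysed from 1 table of 16781 genes. The build is GRCh38 per the submitters' processing notes, which also list StringTie 2.1.6, HISAT2 2.2.1, cutadapt 1.9, edgeR and DESeq2 with no stated roles. The authors deposited estimated counts per gene, of which 7.12 to 7.43% in a library were not whole. They also deposited FPKM values, scaled by length and depth, and TPM values with a sum of 1000000 per library, per the file headers. How strand and multiply matching reads were handled is not given in the sources used here. The authors' mean columns were not used.

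Counts were rounded, filtered with filterByExpr (13028 genes left) and scaled by TMM, and edgeR's robust quasi-likelihood test (edgeR 4.0.16, R 4.3.3) was run for CBS KO over WT, without covariates and with Benjamini-Hochberg adjustment over all genes. Standard errors came from the estimate and its F statistic. The fit was also run on simulated counts in which only a small part of the genes changed. Here 77.2% of all genes were called, so that run cannot show how scaling and calls behave under so broad a change. DESeq2 1.42.0 and limma-trend (limma 3.58.1) on log2(FPKM + 1), log2(FPKM + 0.1) and log2(TPM + 1), over genes averaging 0.5 or more, were alternatives, beside other scalings and filters, a replicate block and leaving out each library. A limma fold change is on the log2(value + pseudocount) scale and understates changes of low genes. Intervals and limits cover counting error only. Replicate libraries differed by more than sampling noise (chi-square per gene of 1.98 or more).

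The receptors and the pathway lists were chosen with earlier results of these data known, so lists are described by counts and medians without a test. Named genes are the receptors, CBS and, per list, up to 4 called genes with the largest change that reach 1 CPM and the most abundant gene by TPM; CFLAR, BIRC2, TRAF1 and TRAF2 are named as parts of the ratios, overlapping and marker genes as checks, and others as marked where they appear. Members of the lists not in the table were not analysed here. Gene positions and promoters came from RefSeq (GRCh38.p14), overlaps from GENCODE on GRCh38. Protein sequences were not used here.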

Additional observations from a re-analysis of the deposited data

How the results depend on the processing

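The count of receptors called was 6 higher and 3 lower with TMM, and 4 higher and 3 lower with TPM, where TNFRSF1B (log2 fold change 0.21) and TNFRSF10B (0.01) lost their calls; with the filter at 5 CPM TNFRSF11A was not tested. Without any 1 library all 9 calls stayed, with TNFRSF1A the closest to the threshold (highest adjusted p = 0.0421 by edgeR, log2 fold change -0.27 to -0.19). Without a filter FAS was fitted and not called (adjusted p = 0.113). Over all genes 4998 were higher and 5062 lower, against 2966 higher with the library total, 2823 with log2(FPKM + 1), 2818 with log2(FPKM + 0.1) and 1969 with TPM, where 8451 were lower. Of all calls, 49.7% were higher after TMM, 28.6% by library total, 28.6% by log2(FPKM + 1) and 18.9% by TPM. MAPK14 turned to log2 fold changes of -0.32 (library total), -0.33 (FPKM + 1), -0.34 (FPKM + 0.1) and -0.57 (TPM), ADAM10 to -0.014 (library total) and -0.23 (TPM), and ADAM17 to -0.17 (library total), -0.20 (FPKM + 1), -0.21 (FPKM + 0.1) and -0.43 (TPM), while the all-gene medians moved the same way. ADAM17 was also not called without a filter or when CBS KO replicate 1 or 2, or WT replicate 1, 2 or 3, was left out. DIABLO was called lower without CBS KO replicate 3 (adjusted p = 0.0334). Whether same-numbered libraries share a culture or day is not given in the labels. The deviations of same-numbered libraries correlated at 0.04, 0.02 and 0.02 across genes, and not every library correlated best with its own number. Deviations from the mean of so few libraries cannot exclude a pairing. With the replicate block 6 receptors were higher and 3 lower, among 4986 genes higher and 5058 lower. The ratio of FAS to TNFRSF1A was not run because FAS is listed at 0 in 1 CBS KO and 2 WT libraries. The 8 ratios kept their direction with counts in place of TPM, which only leaves out gene length. FPKM and TPM of a library differ by a common factor, so ratios of FPKM values could not differ. Where the groups of a ratio did not overlap, leaving out 1 library could not turn it, so these checks add no support. The ratio of TRAF1 to TRAF2, whose groups overlapped, also kept its direction without any 1 library. Depth limits FAS, TNF, LTB, TNFRSF9 and EDAR, which rest on few counts.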

Other observations

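Receptors of epithelial cells for other cytokines were divided as well: of 20 tested, 11 rose, 8 fell and 1 missed the threshold (median log2 fold change 0.30). Of all genes 38.4% were higher and 38.9% lower. With TPM 4 were called higher and 11 lower, beside 15.4% and 66.1% of all genes. Both chains of the interferon gamma receptor rose. IFNGR2, the signalling chain, had 126, 133 and 131 CPM in CBS KO, against 38.7, 44.1 and 40.04 CPM in WT (3.18-fold, adjusted p = 1.38e-12 by edgeR), and IFNGR1, the ligand-binding chain, reached 165 ± 5.51 CPM in CBS KO, against 84.2 ± 4.38 CPM in WT (SD, n = 3 each). The interleukin-1 receptor chain IL1R1, the interleukin-17 receptor chain IL17RA and TLR5 fell, while IL1RAP, the second chain of the interleukin-1 receptor, rose 1.51-fold to 20.7 ± 2.34 CPM in CBS KO, against 13.6 ± 1.69 CPM in WT (adjusted p = 9.00e-05; named after its values were seen). IL1R1 had 4.67, 5.01 and 3.66 CPM in CBS KO, against 16.3, 16.3 and 17.2 CPM in WT (3.74-fold lower, adjusted p = 4.29e-10). IL17RA had 15.99, 15.4 and 14.1 CPM in CBS KO, against 42.5, 42.2 and 44.1 CPM in WT (2.83-fold lower, adjusted p = 3.88e-11). TLR5, the flagellin receptor, stood at 1.06 ± 0.09 CPM in CBS KO and 4.44 ± 0.14 CPM in WT (4.17-fold lower, adjusted p = 8.14e-08). In each of these 6 genes the groups did not overlap, as in 79.1% of all genes tested.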
